A study of Mus musculus with 6 samples.

Results

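The 10 genes described here are immediate early genes, 10 of the 54525 gene rows in the count files. They are the AP-1 genes *Fos*, *Fosb*, *Fosl1*, *Fosl2*, *Jun* and *Junb*, the Egr genes *Egr1*, *Egr2* and *Egr3*, and *Npas4*. The first 9 were chosen by gene family, and *Npas4* was selected on its measured counts, because it was nearly lost at D5. Its level is therefore a description and was given no test. RNA was sequenced from wild-type C2C12 cells without further treatment, as myoblasts on day 0 (D0, 3 cultures) and as myotubes on day 5 of differentiation (D5, 3 cultures). C2C12 is an established mouse myoblast line, so all cultures share 1 cell line. D0 cells were kept in medium with fetal bovine serum and D5 cells in medium with a small amount of horse serum, so that the change of serum and the differentiation cannot be told apart. The time between the last change of medium and the lysis of the cells is not given in the sources used here.

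Immediate early genes are switched on within minutes of a stimulus without new protein synthesis, and most of their mRNAs are short-lived. Growth factors in serum act through MAP kinases on the factors SRF and ELK, and calcium or cAMP act through CREB, and both routes converge on the promoters of these genes. FOS and JUN proteins are basic leucine zipper factors that pair with each other to form AP-1. The EGR proteins are zinc finger factors, and NPAS4 is a bHLH-PAS factor best known from active neurons. In muscle cells, AP-1 made with JUN is known to restrain MYOD1 while myoblasts proliferate.

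At D5 the group split. *Egr3*, *Egr2*, *Junb*, *Fos* and *Egr1* rose, *Fosl1*, *Jun* and *Fosl2* fell, *Fosb* did not pass the test, and *Npas4* had at most 2 counts in a D5 library. Of the 9 genes chosen by family, 5 were higher and 3 lower at a threshold of 0.05 on the adjusted p of edgeR (quasi-likelihood test). Among all 16290 genes tested 42.2% were higher, 40.8% were lower and 82.9% changed in either direction, so a change as such was common in this comparison. Values are given as CPM, counts per 1000000 counts after TMM scaling, for a gene across libraries, and as TPM, which also takes the exonic length of each gene into account, where different genes are compared.

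The libraries held 25449759 to 40895840 counts on genes. All 6 myoblast and cell cycle markers (*Myod1*, *Myf5*, *Pax7*, *Mki67*, *Top2a* and *Ccnb1*) were lower at D5 and all 6 myotube markers (*Myog*, *Mymk*, *Ckm*, *Myh3*, *Acta1* and *Tnnt3*) were higher, which matches the labels. In RNA from whole cultures, fewer cells of a type and less RNA per cell cannot be told apart. The 5 heat shock genes, which respond to handling, summed to 1177 to 1240 CPM at D0 and 1118 to 1177 CPM at D5, with *Dnajb1* and *Hsph1* lower and none higher. ERCC spike-ins, RNAs added from outside, took 0.726% to 0.859% of the counts at D0 and 0.720%, 1.20% and 2.09% in the D5 libraries. D5 replicate 3 therefore stood apart in its spike-in share. Without it the numbers of higher and lower genes among the 9 were again 5 and 3. That fit used TMM scaling, in which the spike-ins play no part, so it cannot show what their difference does.

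**Figure D1:**
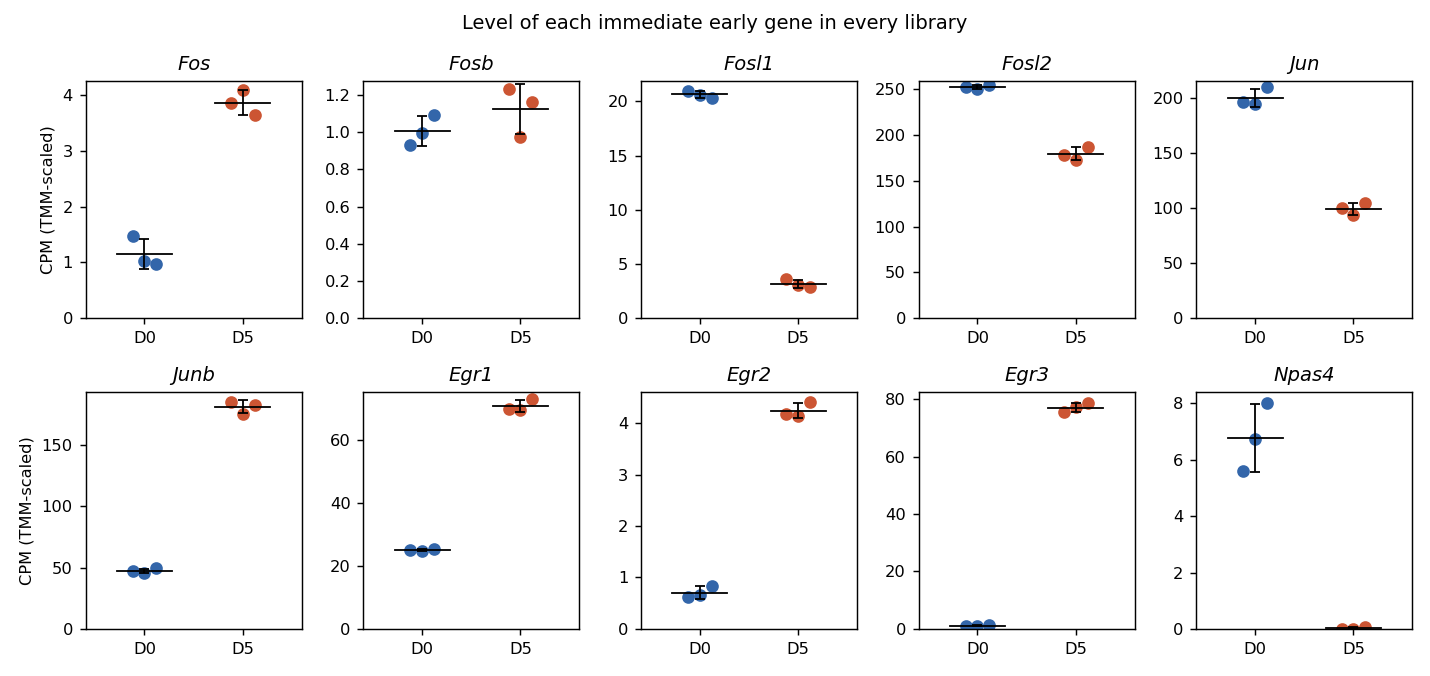
Level of each of the 10 genes in every library, in TMM-scaled CPM on linear axes that start at 0. Points are single libraries, horizontal lines are group means and bars are ± 1 SD (n = 3). Only for *Fosb* do the D0 and D5 libraries overlap.

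Short stretches upstream of 4 of these genes are shown because they hold letters that CREB or SRF are known to read. *Fos*, *Junb* and *Egr2* rose together and *Npas4* was nearly lost, so the stretches come from genes on both sides of the split. Windows from 250 bases before to 50 bases after an annotated start were found in RefSeq (GRCm38.p6) for 7 of the 10 genes, 11 windows in all, of which 5 belong to *Egr2*. Capitals mark the letters TGACG or their complement CGTCA (one arm of a cAMP response element), the TATA box TATAAA in *Fos*, and the CArG box in *Egr2*, the element bound by SRF.

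Fos, chr12:85473750-85473869, plus strand, 140 to 21 bases before the start: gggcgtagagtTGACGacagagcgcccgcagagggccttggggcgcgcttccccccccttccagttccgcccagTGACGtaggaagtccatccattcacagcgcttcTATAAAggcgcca

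Junb, chr8:84978819-84978878, minus strand, 130 to 71 bases before the start: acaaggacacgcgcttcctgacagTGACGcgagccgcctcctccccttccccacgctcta

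Egr2, chr10:67537749-67537828, plus strand, 120 to 41 bases before one of its starts: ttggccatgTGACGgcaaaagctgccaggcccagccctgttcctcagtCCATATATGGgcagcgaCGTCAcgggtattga

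Npas4, chr19:4990131-4990155, minus strand, 184 to 160 bases before the start, within an exon of a longer transcript: ttcgaCGTCAcgggaTGACGtcgga

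The letters TGACG occurred on either strand in a window of 5 of the 7 genes (*Fos*, *Fosb*, *Junb*, *Egr2* and *Npas4*), against 23.0% of the 27025 genes with a window. They did not occur in the windows of *Jun* and *Fosl2*. A CArG box was present in 1 of the 7, *Egr2*, against 1.81% of all genes. *Egr2* had 5 windows to match in. With only 1 window taken for each gene, the CArG box was in 0 of the 7 (1.57% of all genes). TGACG was then in 4 of the 7 (21.0% of all genes). The Egr site GCGNGGGCG was present in *Fosb* and *Fosl2*, against 6.27% of all genes. The letters TATAAA were present in *Fos* and *Junb*, against 15.7%. In *Fos* they begin 33 bases before the start. In *Junb* they begin 1 base after the RefSeq start. GENCODE M21 starts *Junb* further downstream, at 84978718 on the minus strand, so relative to that start the letters lie upstream. The full element TGACGTCA (2.03% of all genes) and the AP-1 site TGANTCA (8.97%) were in none of the 7. TGACG is contained in TGACGTCA. These are matches of letters within windows of 300 bases, and no binding was measured. *Fosl1*, *Egr1* and *Egr3* had no window, and letters further than 250 bases before a start were not searched. A site missing here can therefore lie outside the windows.

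Among the JUN genes, *Junb* rose and *Jun* fell. *Jun* encodes the AP-1 subunit named above as a restraint on differentiation. *Jun* (ENSMUSG00000052684.4, chromosome 4 of GRCm38 from 95049034 to 95052222, a single exon) was counted 7358, 8161 and 8434 times at D0 and 2514, 2303 and 2598 times at D5. In CPM, D0 libraries held 196, 194 and 209 and D5 libraries 100, 93.4 and 104. The groups did not overlap, and D5 was at 49.7% of the D0 level on average. The log2 fold change was -1.01 (SE 0.039, adjusted p = 1.6e-20 in edgeR's test).

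*Junb* encodes a JUN protein that can replace JUN in AP-1 and is a weaker activator at many sites. *Junb* (ENSMUSG00000052837.6, chromosome 8 from 84974484 to 84978718) had 1775, 1926 and 1983 counts at D0 and 4651, 4314 and 4545 at D5, although the D5 libraries were the smaller ones. These are 47.3, 45.8 and 49.2 CPM at D0 and 185, 175 and 183 CPM at D5. All D5 libraries were above the D0 libraries, by 3.81-fold on average (log2 fold change 1.93, SE 0.038, adjusted p = 2.2e-28 in edgeR's test). A gene on the opposite strand, *Prdx2*, covers 7.52% of the exonic length of *Junb*, and *Junos* covers 7.28% of that of *Jun*. Both of these neighbours were higher at D5, with log2 fold changes of 0.88 and 0.69, and their part in the counts of *Junb* and *Jun* was not tested.

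The order of both genes turned over within the libraries. The ratio of *Junb* to *Jun* in TPM was 0.334, 0.327 and 0.326 in the D0 libraries and 2.56, 2.60 and 2.42 in the D5 libraries. A ratio within a library does not depend on how libraries are scaled to each other, and it was 7.68 times as high at D5. Together with *Jund*, which is no immediate early gene but the remaining JUN gene, *Junb* made up 9.64% ± 0.177 of the JUN family TPM at D0 and 42.4% ± 0.982 at D5 (SD, n = 3 each). The share of *Jun* fell from 29.3% ± 0.474 to 16.8% ± 0.672, and that of *Jund* from 61.1% ± 0.609 to 40.9% ± 1.41 (SD, n = 3 each). Each of these shares was separate between the groups in all libraries. The sum of the family went from 740 ± 29.0 TPM to 575 ± 15.7 TPM.

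Among the FOS genes, *Fosl1* fell furthest and *Fos* rose, while *Fosl2* was the most abundant in both groups. *Fosl1* encodes FRA1, which is typically kept up by lasting ERK activity in growing cells. *Fosl1* (ENSMUSG00000024912.5, chromosome 19 from 5447547 to 5455946) was counted 786, 868 and 820 times at D0 and 90, 76 and 71 times at D5. These are 21.0, 20.6 and 20.3 CPM in myoblasts and 3.58, 3.08 and 2.85 CPM in myotubes without overlap, so the myotube libraries held 15.4% of the myoblast level. The log2 fold change was -2.70 (SE 0.085, adjusted p = 7.8e-23 in edgeR's test). *Ccdc85b*, on the opposite strand, covers 57.2% of the exonic length of *Fosl1*. It had 236, 303 and 228 counts at D0 and 236, 241 and 257 at D5, and its log2 fold change was 0.62, in the other direction. How many of the counts of *Fosl1* could be reads from *Ccdc85b* was not tested, since the strand setting of the counting is not given in the sources used here. Whether reads on the shared bases were left out of the *Fosl1* counts was not tested either. Its TPM used the full exonic length, so its share, ratios and place among the members carry this limit.

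*Fosl2* encodes FRA2, another FOS protein without the strong activation domain of FOS itself. *Fosl2* (ENSMUSG00000029135.10, chromosome 5 from 32135801 to 32157842) had 253, 250 and 255 CPM at D0 and 179, 173 and 187 CPM at D5. The groups did not overlap, and the fall to 71.1% of the D0 level was the smallest called change among the 9 genes (log2 fold change -0.49, SE 0.034, adjusted p = 2.7e-14 in edgeR's test).

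*Fos*, the classical serum response gene, was low in both groups. *Fos* (ENSMUSG00000021250.13, chromosome 12 from 85473890 to 85477273) had 55, 43 and 39 counts at D0 and 97, 101 and 91 at D5. This gave 1.47, 1.02 and 0.968 CPM at D0 and 3.86, 4.10 and 3.65 CPM at D5, a 3.36-fold higher mean. D0 replicate 1 was the highest of the D0 libraries and still lay below all D5 libraries. The log2 fold change was 1.75 (SE 0.17, adjusted p = 6.1e-11 in edgeR's test).

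*Fosb*, whose long-lived splice form accumulates in neurons after repeated stimulation, was the lowest member at D0. *Fosb* (ENSMUSG00000003545.3, chromosome 7 from 19302696 to 19310051) had 35, 42 and 44 counts at D0 and 31, 24 and 29 at D5. In CPM these are 0.934, 0.998 and 1.09 at D0 and 1.23, 0.973 and 1.16 at D5, and the groups overlapped. The log2 fold change was 0.16 (SE 0.22, adjusted p = 0.51 in edgeR's test), so with 24 to 44 counts per library no difference was detectable at this depth.

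*Fosl2* therefore made up most of the FOS family in both groups, and more of it at D5. *Fosl2* made up 70.7% ± 0.563 of the family TPM at D0 and 84.6% ± 1.26 at D5 (SD, n = 3 each). *Fosl1* went from 27.5% ± 0.360 to 7.11% ± 0.868 and *Fos* from 1.33% ± 0.306 to 7.51% ± 0.628 (SD, n = 3 each). Within the libraries, the ratio of *Fos* to *Fosl1* in TPM was 0.0605, 0.0428 and 0.0411 at D0 and 0.932, 1.15 and 1.11 at D5. *Fosb* stayed below 1% of the family in every library, at 0.402% to 0.473% at D0 and 0.731% to 0.895% at D5. The sum of the family was 128 ± 1.62 TPM at D0 and 68.1 ± 2.67 TPM at D5, and the ratio of the JUN family to the FOS family in TPM went from 5.79 ± 0.154 to 8.45 ± 0.104 (SD, n = 3 each).

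**Figure D2:**
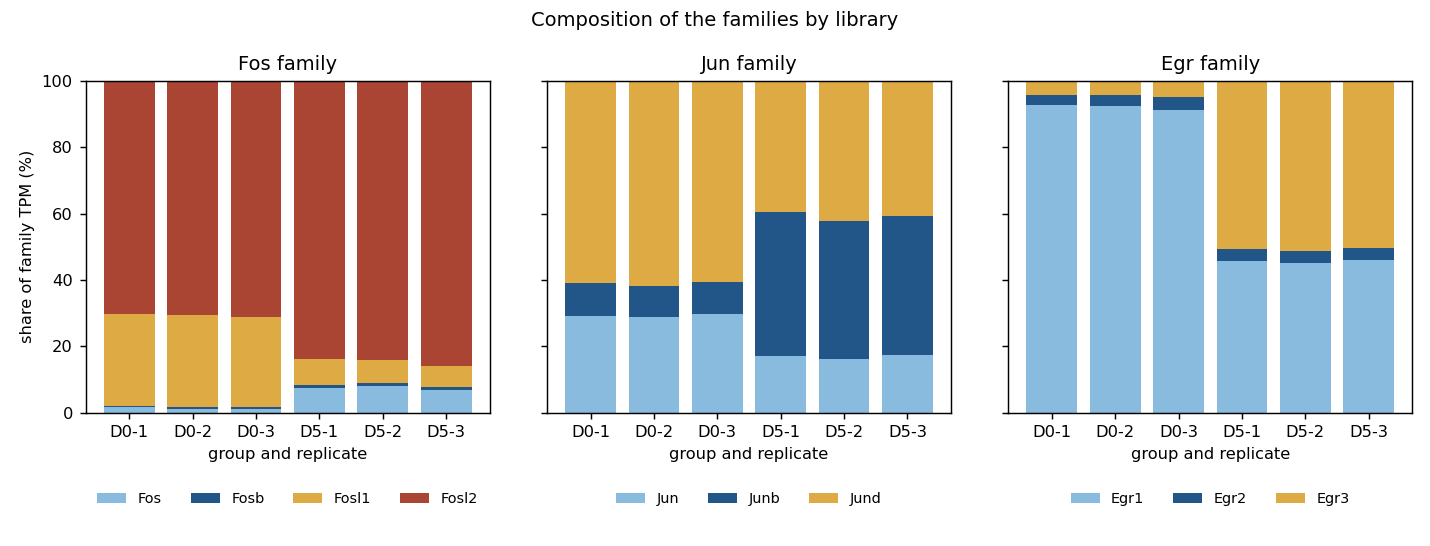
Share of each gene in the TPM of its family (%), stacked to 100 for each library, for the FOS, JUN and EGR families, with group and replicate on the horizontal axis. *Junb* takes 9.64% of the JUN family at D0 and 42.4% at D5 on average, *Fosl1* goes from 27.5% to 7.11% of the FOS family, and *Egr3* goes from 4.44% to 50.7% of the EGR family.

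All 3 EGR members rose. *Egr3*, which encodes a factor needed for muscle spindles and for lymphocyte responses, changed by far more than the other 8 tested members. *Egr3* (ENSMUSG00000033730.4, chromosome 14 from 70077203 to 70082614) had 41, 48 and 53 counts at D0 and 1894, 1904 and 1957 at D5. This gave 1.09, 1.14 and 1.32 CPM at D0 and 75.3, 77.2 and 78.6 CPM at D5, a 65.1-fold higher mean. The log2 fold change was 6.02 (SE 0.072, adjusted p = 8.2e-34 in edgeR's test).

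*Egr1*, the most studied of the family and a direct target of SRF and ELK factors, was the main EGR transcript at D0. *Egr1* (ENSMUSG00000038418.7, chromosome 18 from 34859823 to 34864984) had 935, 1043 and 1016 counts at D0 and 1749, 1712 and 1812 at D5. These are 24.9, 24.8 and 25.2 CPM at D0 and 69.6, 69.4 and 72.8 CPM at D5. The groups were well apart, with a 2.83-fold higher mean at D5 (log2 fold change 1.50, SE 0.043, adjusted p = 6.7e-24 in edgeR's test).

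*Egr2*, known as Krox20 and required for myelination by Schwann cells, stayed low. *Egr2* (ENSMUSG00000037868.15, chromosome 10 from 67535475 to 67542188) had 23, 28 and 34 counts at D0 and 105, 102 and 110 at D5. This gave 0.614, 0.665 and 0.844 CPM at D0 and 4.18, 4.14 and 4.42 CPM at D5, again without overlap (log2 fold change 2.58, SE 0.17, adjusted p = 1.5e-14 in edgeR's test).

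*Egr1* and *Egr3* thus came to similar levels. The ratio of *Egr3* to *Egr1* in TPM was 0.0446, 0.0468 and 0.0531 at D0 and 1.10, 1.13 and 1.10 at D5. *Egr1* made up 92.1% ± 0.885 of the family TPM at D0 and 45.7% ± 0.362 at D5, and *Egr3* 4.44% ± 0.360 and 50.7% ± 0.420 (SD, n = 3 each). The share of *Egr2* was 3.44% ± 0.525 and 3.62% ± 0.0603 and overlapped between the groups, although its level rose. *Egr4*, the remaining gene of the family, had 0 counts in every library. The family sum was 20.9 ± 0.646 TPM at D0 and 107 ± 2.34 TPM at D5, 5.11 times as high. For the sums and shares of the 3 families, an exact two-sided permutation test of 3 libraries against 3 gave p = 0.1, the smallest it allows, except for the share of *Egr2* (p = 0.6) and *Egr4*.

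*Npas4* went the other way. *Npas4* (ENSMUSG00000045903.8, chromosome 19 from 4984355 to 4990316) was counted 210, 283 and 323 times at D0, and 0, 0 and 2 times at D5. Its level at D0 was 5.60, 6.73 and 8.01 CPM, 6.78 ± 1.21 on average (SD, n = 3). All D5 libraries were within 3 counts, the number that a count of 0 allows, which is 0.120 CPM on average over the D5 libraries. Against this limit *Npas4* was at least 56.3-fold lower at D5. At D0 its 5.68 ± 1.10 TPM placed it above *Fos*, *Fosb*, *Egr2* and *Egr3* and below *Egr1*, at the 35.8 percentile of all genes tested.

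Transcripts that define neurons, the cells in which *Npas4* is best known, were at or near 0 for 4 of the 6 markers, among them *Rbfox3* with 0 counts in every library and *Snap25* and *Gad1* with at most 1. *Syt1* had 2 to 5 counts in any library. The summed level of the list was 3.41 to 4.23 CPM at D0 and 32.4 to 37.1 CPM at D5. Most of it was *Stmn2*, with 3.56 CPM at D0 and 33.3 CPM at D5 on average, and *Slc17a7* was the other marker that was higher at D5. Markers of adipocytes were all at or under 3 counts. The 5 endothelial markers summed to 3.31 to 3.59 CPM at D0 and 0.517 to 0.884 CPM at D5, with *Tie1* at 0 and *Kdr* and *Tek* lower, and the 5 macrophage markers to 3.16 to 3.39 CPM and 2.05 to 3.16 CPM, with *Adgre1* at 0 and *Cd68* lower. *Itgam* of the macrophage list did not pass the filter on low counts and had 0 counts in every D0 library and 10, 13 and 5 at D5. The part of such cells in the level of *Npas4* was not tested.

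The genes whose pattern was most like that of *Npas4* were found by the Euclidean distance over the 6 libraries in log2 CPM with a prior count of 2, each gene taken relative to its own mean. This distance mainly follows the fall from D0 to D5, on which *Npas4* was selected. The genes found are therefore others with a fall of similar size, and the list is a description only. The nearest was *Glipr1* (distance 0.780), followed by *Hist1h3g* (0.782), *Igsf9* (0.962), *Gm12406* (1.05) and *Soga3* (1.05). On average *Glipr1* went from 82.2 CPM to 0.722 CPM, and *Gm12406* had 256, 294 and 335 counts at D0 and 2, 0 and 2 at D5. *Glipr1*, *Hist1h3g* and *Soga3* kept 13 to 35 counts in each D5 library, unlike *Npas4*, and the prior count draws such genes together. Among the members, the nearest partner of *Junb* was *Egr1*, at a distance of 0.538, and *Egr1* was also the nearest to *Fos* (0.545). *Jun* and *Fosl2* were nearest to each other (0.639), and *Jun* was the nearest to *Fosl1* (2.07). *Egr3* had no close partner, with *Egr2* at 4.24.

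In order of TPM the members ran at D0 from *Jun* (217) over *Fosl2* (90.3), *Junb* (71.4), *Fosl1* (35.1), *Egr1* (19.3), *Npas4* (5.68), *Fos* (1.69), *Egr3* (0.930) and *Egr2* (0.722) to *Fosb* (0.559). Of these neighbours, *Egr3* and *Egr2* overlapped between libraries. At D5 the order was *Junb* (244), *Jun* (96.6), *Fosl2* (57.6), *Egr3* (54.3), *Egr1* (48.8), *Fos* (5.10), *Fosl1* (4.85), *Egr2* (3.88), *Fosb* (0.559) and *Npas4* (0.0200). There *Fosl2* overlapped with *Egr3* and *Fos* with *Fosl1*. The step from the most to the least abundant detected member was wide in both groups, with *Jun* at the 96.1 percentile of all genes tested at D0, *Junb* at the 96.9 percentile at D5, and *Fosb* at the 10.3 and 6.69 percentiles.

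The cultures of a group were close to each other for most members. The coefficient of variation (CV) of CPM over the 3 libraries was 0.855% to 23.8% at D0 and at least 2.12% at D5 for the 9 genes other than *Npas4*, with medians of 4.13% and 3.84%. Over all genes tested the medians were 4.65% and 5.68%. *Egr1* had the smallest spread at D0 and *Fos* the largest, at 23.8% against 14.8% from counting alone. *Npas4* varied by 17.8% at D0, where counting alone gives 6.06%. For 6 of the 9 genes at D0 and 4 of the 9 at D5 the spread was below that of counting alone, which with 3 libraries is itself uncertain.

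Other immediate early genes also went in both directions. Of 28 genes of a list that held none of the members, 8 were higher and 16 lower in edgeR's test, and 4 did not pass. Among all genes tested 42.2% were higher and 40.8% lower in the same test. The median log2 fold change of the list was -0.64, against 0.0022 over all genes tested. *Ctgf*, a matrix-associated factor now named *Ccn2*, fell from 1795 ± 43.1 CPM to 58.5 ± 4.01 CPM (log2 fold change -4.94), and *Dusp1*, a phosphatase that switches off MAP kinases, from 218 ± 2.08 CPM to 38.7 ± 2.37 CPM (log2 fold change -2.50). *Nr4a1*, an orphan nuclear receptor, rose from 3.63 ± 0.351 CPM to 11.1 ± 1.05 CPM, and *Klf4*, a zinc finger factor, from 9.85 ± 0.589 CPM to 22.6 ± 0.821 CPM (SD, n = 3 each). The adjusted p in edgeR's test was 5.6e-37 for *Ctgf*, 1.6e-30 for *Dusp1*, 2.9e-15 for *Nr4a1* and 6.8e-17 for *Klf4*. With scaling to the spike-ins *Nr4a1* (log2 fold change 1.06) and *Klf4* (0.62) did not pass. By library, 8 of the 28 genes had every D5 library above every D0 library and 17 had every one below, against 42.2% and 41.1% of all genes tested.

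**Figure D3:**
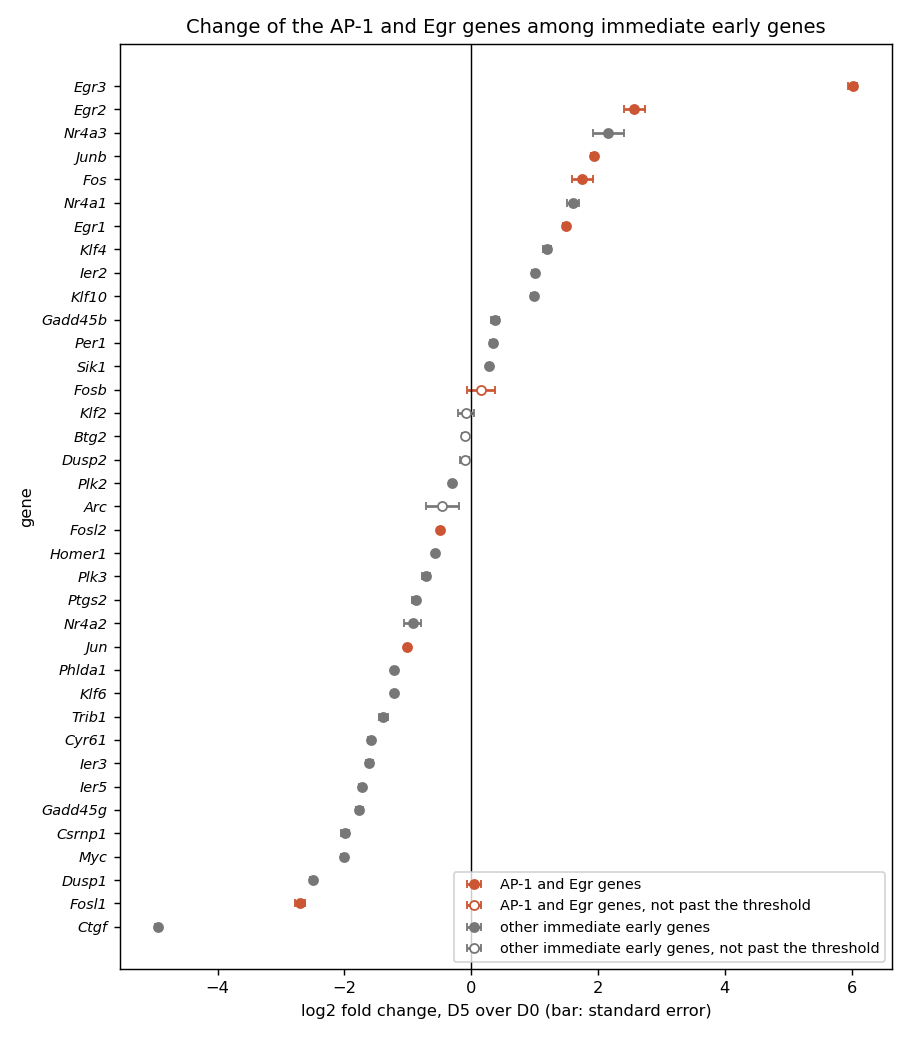
Log2 fold change of D5 over D0 with its standard error for the 9 AP-1 and Egr genes (coloured) and the 28 other immediate early genes (grey), sorted by value. Open circles did not pass the test. *Egr3* lies at 6.02 and *Ctgf* at -4.94, and the AP-1 and Egr genes are spread over both ends.

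The other basic leucine zipper genes that can pair with FOS or JUN also went both ways, with 4 higher, 5 lower and 1 not past the test among 10 tested of 13 listed, beside 42.2% and 40.8% of all genes. *Atf3*, a stress-induced repressor, fell from 27.8 ± 2.15 CPM to 6.71 ± 1.18 CPM (log2 fold change -2.05), and *Jund* fell with a log2 fold change of -0.79. *Maf* rose from 9.49 ± 0.0888 CPM to 72.8 ± 4.60 CPM (log2 fold change 2.94), and *Mafk*, a small MAF protein without an activation domain, had a log2 fold change of 0.94. *Batf*, *Batf2* and *Batf3* did not pass the filter on low counts. *Nab2*, the corepressor that EGR proteins induce and that acts on them in turn, rose from 26.7 ± 0.972 CPM to 131 ± 0.737 CPM (log2 fold change 2.29, adjusted p = 1.1e-29 in edgeR's test), whereas *Nab1* had a log2 fold change of -0.21. *Arnt* and *Arnt2*, the dimer partners of NPAS4, rose with log2 fold changes of 0.40 and 1.35 (-0.20 and 0.82 with scaling to the spike-ins, where neither passed), while the related *Npas2* fell (-2.54). *Npas3*, with 33, 31 and 36 counts at D0 and 2, 13 and 18 at D5, was also called lower, but not without D5 replicate 1, and *Npas1* did not pass the filter on low counts. Both were named after their values were seen.

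Among the factors upstream, 9 of 14 were lower and 4 higher, against 40.8% and 42.2% of all genes tested, with a median log2 fold change of -0.33. *Elk3* fell from 117 ± 0.340 CPM to 35.7 ± 1.19 CPM and *Mkl1*, the SRF coactivator now named *Mrtfa*, from 158 ± 3.35 CPM to 60.3 ± 1.06 CPM. *Elk1* rose from 32.5 ± 0.813 CPM to 58.2 ± 1.56 CPM and *Elk4* from 113 ± 3.16 CPM to 168 ± 4.93 CPM (SD, n = 3 each), but with scaling to the spike-ins *Elk1* was at 0.27 and *Elk4* at -0.015 on the log2 scale and neither passed. Of 21 genes of growth factor receptors and the MAP kinase route, 11 were higher and 7 lower, against the same 42.2% and 40.8%, with a median of 0.19. The receptor gene *Egfr* rose from 3.09 ± 0.471 CPM to 78.0 ± 0.643 CPM (log2 fold change 4.65) and *Pdgfra* had a log2 fold change of 4.52, while *Met* (-1.21) fell.

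Inhibitors of MAP kinase signalling, a list of Dusp and Spred genes that do not all act on ERK, were split into 4 higher and 5 lower of 11. These numbers again stand beside 42.2% and 40.8% of all genes. *Dusp7* (log2 fold change 1.53) and *Dusp6* (0.60) rose, although with scaling to the spike-ins they were at 0.93 and -0.014 and did not pass. *Dusp8* (-2.02) and *Dusp10* (-1.48) fell. All 6 genes for proteins that bind AU-rich mRNAs, the kind of element that shortens the life of many immediate early mRNAs, changed, 3 in each direction, where 82.9% of all genes tested changed. *Zfp36l1*, which promotes decay, rose from 24.1 ± 2.07 CPM to 138 ± 5.84 CPM and *Zfp36l2* had a log2 fold change of 0.63 (0.048 with scaling to the spike-ins, where it did not pass). *Khsrp* (-1.26) and *Elavl1* (-1.07), of which the latter stabilizes such mRNAs, fell.

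Genes known as AP-1 targets were 4 higher and 7 lower among 13 tested of 15 listed, against the 42.2% and 40.8% of all genes given above. *Plaur*, the urokinase receptor, fell from 59.4 ± 1.11 CPM to 1.85 ± 0.401 CPM (log2 fold change -5.00, adjusted p = 1.8e-30 in edgeR's test), and *Cd44*, a hyaluronan receptor, from 1590 ± 14.9 CPM to 170 ± 1.86 CPM (log2 fold change -3.23). *Spp1*, osteopontin, rose from 122 ± 3.14 CPM to 558 ± 34.8 CPM, and *Tgfb1* had a log2 fold change of 1.15. The other 2 higher genes were the matrix metalloproteinases *Mmp3* and *Mmp13*, which had at most 3 counts in any D0 library and were at least 42.7-fold and at least 10.7-fold higher at D5. Both passed the filter on low counts only through their D5 libraries, so higher was the only call open to them. *Mmp9* and *Il6* did not pass the filter.

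The way in which libraries were scaled moved these values most. With scaling to the spike-ins the median over all genes tested was -0.58, and 3 members were called higher and 2 lower. Over the 9 pathway lists together, 11 genes were then higher and 39 lower, in place of 41 and 55 of 109 tested, and over all genes 67.4% of the calls were lower, in place of 49.2%. *Fos* (1.21), *Egr1* (0.92) and *Fosl2* (-1.08) were then no longer past the threshold, and *Fosb* had the opposite sign (-0.50). Of the other genes named, *Mafk* (0.37), *Nab1* (-0.79) and *Tgfb1* (0.56) also lost their calls, beside those given above. Taken relative to that shift of all genes, no member differed by more than 0.078 from its log2 fold change after TMM scaling. A change of scaling moves all genes by nearly the same amount, so this closeness was fixed in advance and is no separate check. *Egr3*, *Egr2*, *Junb*, *Jun* and *Fosl1* passed the threshold in every fit that was run.

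**Figure D4:**
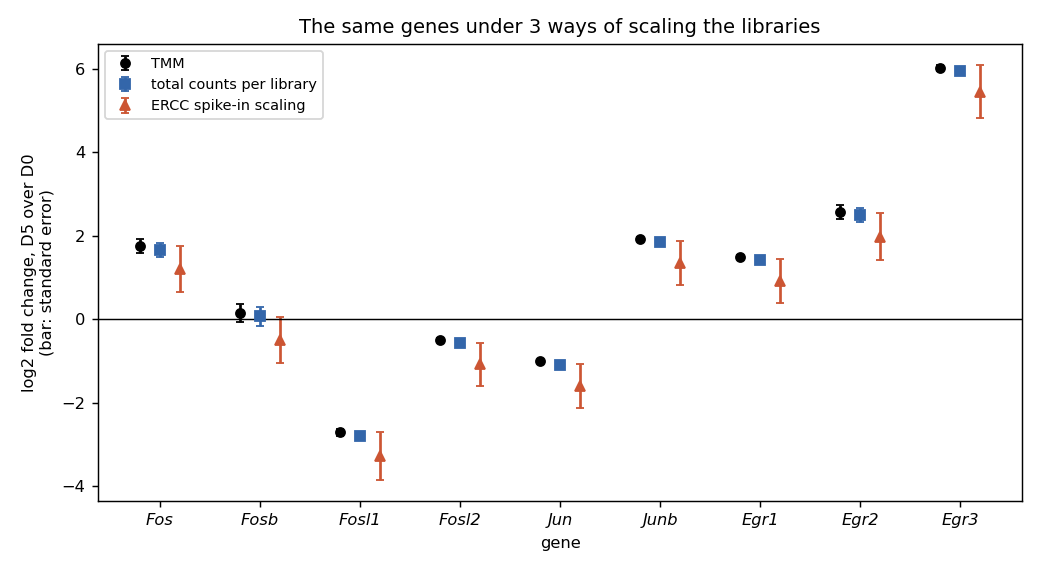
Log2 fold change of D5 over D0 with its standard error for the 9 genes under TMM scaling (circles), scaling to total counts (squares) and scaling to the ERCC spike-ins (triangles). The triangles lie below the circles for every gene, as far as the median of all genes moved (-0.58), with wider errors, and *Fosb* crosses 0.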

How the data were processed

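The authors aligned reads to GRCm38 and deposited raw counts per gene from featureCounts, 1 file for each of the 6 libraries. The paper names HISAT2 as aligner and the sample labels Tophat2, and annotation release and strand setting are not given in the sources used here. The 92 ERCC rows and 1 nameless row, which equalled the column total, were left out of library sizes. From the deposited counts, TMM factors, CPM, log2 fold changes and quasi-likelihood tests were computed with edgeR 4.0.16 (R 4.3.3) after filterByExpr, with Benjamini-Hochberg adjustment over 16290 genes and a threshold of 0.05. The SE of a log2 fold change was taken as its size over the root of the F statistic. TPM used the exonic length in GENCODE M21, where 99.9% of the gene rows were found. An undetected gene can have up to 3 counts, a limit that covers counting error only. Nothing states that cultures were independent, so p-values measure the spread between these samples, which may be technical. Replicates differed by more than sampling noise (chi-square per degree of freedom 2.28 to 3.71).

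The members, lists and tests were chosen with earlier results of these data known. Named genes are the members, the 2 largest rises and 2 largest falls of each list among called genes with at least 50 counts on average in 1 group and no overlap between groups, and the 5 genes nearest to *Npas4*. One gene that this rule names is not reported here. Other genes named were chosen after their values were seen. Alternatives were DESeq2 1.42.0, upper-quartile, total-count and spike-in scaling, no filter, at least 10 counts in every library, a replicate block, each library left out, and the longest transcript as gene length. The fits were tested on simulated counts. The submitters' processing notes also name DESeq2 1.6.3, whose output was not used here.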

Additional observations from a re-analysis of the deposited data

How the results depend on the processing

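With libraries scaled by their ERCC counts, a choice known from earlier results to move the calls, 5560 genes passed the threshold in place of 13510, of which 67.4% were lower against 49.2% with TMM. This left 3 higher members and 11 higher genes over all pathway lists, in place of 5 and 41, and turned the sign of *Fosb* (-0.50), *Arnt* (-0.20), *Elk4* (-0.015) and *Dusp6* (-0.014). The spike-in counts differed between D5 libraries, which widens the error of this fit. What made them differ was not tested. With the longest transcript as gene length, the change in share from D0 to D5 was -16.5 percentage points for *Fosl1*, -13.5 for *Jun* and 48.3 for *Egr3*, in place of -20.4, -12.5 and 46.3. DESeq2, upper-quartile and total-count scaling, both filters and all fits without 1 library gave 5 higher and 3 lower members, and genes called over all fits without 1 library numbered 13236 to 13599. The sample numbers are shared between the groups, but nothing states that same-numbered libraries share a culture or a day. Their deviations from the group means correlated only at 0.033, 0.064 and 0.028, which cannot decide this. Every library did correlate best with its own number, but with 3 libraries a group and values this small that order cannot decide it either. The replicate block gave 13558 genes and again 5 higher and 3 lower members. With 23 to 55 counts per library, *Fosb* at both days and *Fos* and *Egr2* at D0 are limited by depth.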

Other observations

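The NR4A genes, orphan nuclear receptors that are immediate early genes too, were looked at after their values were seen. *Nr4a1* and *Nr4a3* were higher at D5 and *Nr4a2* was lower. *Nr4a3* had 14, 15 and 20 counts at D0 and 42, 37 and 59 at D5 (log2 fold change 2.17, SE 0.25, adjusted p = 4.0e-09 in edgeR's test). *Nr4a2* had 161, 208 and 228 counts at D0 and 71, 69 and 56 at D5 (log2 fold change -0.92, SE 0.14, adjusted p = 4.5e-07 in edgeR's test). Neither gene overlapped between the groups.

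Among the receptors and kinases, *Pdgfrb*, a receptor for platelet-derived growth factor, had 42.8 ± 3.33 CPM in myoblasts and 488 ± 17.2 CPM in myotubes (SD, n = 3 each). Its adjusted p in edgeR's test was 2.0e-33, with a log2 fold change of 3.51. *Rps6ka1*, a kinase downstream of ERK, had 71, 81 and 78 counts at D0 and 386, 360 and 364 at D5 (log2 fold change 2.95, adjusted p = 2.2e-22 in edgeR's test). Both were named after their values were seen.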
